A study of Homo sapiens with 2 samples.

Results

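Glycolysis splits glucose into pyruvate and lactate, and the enzymes of its steps are among the most abundant mRNAs of cultured tumour cells. When oxygen is low, the factor HIF1A escapes destruction and switches on many of the same enzymes, together with genes for glucose uptake, blood vessel growth, collagen maturation and removal of mitochondria. Prolyl hydroxylases of the EGLN family mark HIF1A for destruction in the presence of oxygen, and some of the genes that encode them are HIF targets themselves, which closes a feedback loop.

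The 34 genes described here are a fixed list of glycolytic enzymes and hypoxia-induced genes, picked by name from the 58884 genes counted in both libraries. All 34 were matched to an Ensembl gene. They fall into 19 glycolytic enzymes, counting the regulatory enzymes PFKFB3 and PFKFB4, and 15 hypoxia genes, which comprise HIF1A, its hydroxylases and genes that it induces. Having reached 30 counts in either library, 30 of the 34 entered the comparison, 18 enzymes and 12 hypoxia genes. ALDOC, EGLN3, ANKRD37 and CA9 fell below that minimum.

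The cells were T24/R, an adherent epithelial line from human urinary bladder, and the series title places the study in chemonaïve and chemoresistant urothelial carcinoma. The labels do not say to which drug T24/R is resistant. One culture received the solvent DMSO and the other 1600 nM THZ1, a covalent inhibitor of the transcriptional kinase CDK7 that also acts on CDK12 and CDK13, each for 6 h. The protocols mention no treatment with low oxygen.

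Each group had 1 library, of 18445831 counts for DMSO and 18313827 for THZ1. Without replicates no p-value can be given, and the spread between cultures is unknown. A difference is given as the log2 ratio of THZ1 over DMSO, after scaling the libraries with TMM (a method that assumes that most genes do not differ), with a 95% interval for counting error only. A gene is called lower or higher in THZ1 when the ratio is at least 2-fold and the interval excludes no difference. Of the 17 urothelial and epithelial marker genes examined, 4 reached 30 counts (KRT18, KRT8, TP63 and FOXA1). Uroplakins, the defining proteins of the mature urothelial surface, had between 0 and 10 counts, and UPK1B and UPK3A had 0 in both libraries. The mesenchymal marker VIM had 63269 counts in DMSO and 84532 in THZ1, and the leukocyte and endothelial markers had at most 4. Of 6 fibroblast markers 2 reached 30 counts, COL1A1 with 30 and 20 and LUM with 34 and 69, and LUM was called higher (2.90-fold). FOXA1 was called lower, with 129 and 21 counts (4.19-fold). The part of these markers in the results was not tested.

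With TMM scaling, 15 of the 16 tested enzymes that carry out the glycolytic steps lay within 2-fold of DMSO in THZ1, the exception being LDHB. Of the 12 tested hypoxia genes, 2 were called lower, 4 higher and 6 neither. PFKFB3, PFKFB4, EGLN1 and ADM were called lower. LDHB, PDK1, BNIP3, BNIP3L and P4HA1 were called higher. Among all 12457 tested genes, 21.3% were called lower and 9.7% higher. The 4 lower members were called under each of 5 scalings, whereas of the 5 higher ones only LDHB was also called with total counts, and none with the mitochondrially encoded mRNAs as reference.

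Promoter stretches of 7 of the 9 called members are shown because HIF binds the short core ACGTG. PFKFB3 and EGLN1, called lower, carry it, as do BNIP3, P4HA1 and PDK1, called higher. PFKFB4 and ADM, called lower, hold only the variant GCGTG in their windows. The variant GCGTG was searched as well, each on both strands, so that CACGT and its variant mark a core on the opposite strand. The stretches are from RefSeq on GRCh38.p14, 5′ to 3′ on the strand of the gene, with each core in capitals, and 6 capitals in a row where the core lies in the E-box palindrome CACGTG, which other factors of the same class also bind. PFKFB3 has 2 annotated windows that hold a core and PDK1 has 1 with and 1 without, and a single stretch with a core is shown for each. All stretches shown except that of BNIP3 lie inside the GENCODE 29 span of their gene. For PFKFB3 and PDK1, the stretch shown belongs to a start inside the gene. The PFKFB3 window at the gene start holds only CACGC, and the PDK1 window at the gene start holds neither ACGTG nor GCGTG on either strand. The stretches of PFKFB4, ADM, EGLN1, P4HA1 and PDK1 overlap an annotated exon and were cut to 30 bases for that reason. LDHB, whose only core lies after the annotated start, and BNIP3L are not shown. For PFKFB3, PFKFB4, ADM and EGLN1, called lower, they lie at chr10:6202804-6202863 (+), chr3:48556952-48556981 (−), chr11:10304960-10304989 (+) and chr1:231422288-231422317 (−).

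PFKFB3: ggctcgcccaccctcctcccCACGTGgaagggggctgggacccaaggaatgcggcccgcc
PFKFB4: tgagttgggcatGCGTGgtcggaggccggg
ADM: gagcaggagcgcGCGTGgctgaggaaagaa
EGLN1: ccgcggggccgtggtgtACGTGcagagcgc

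For BNIP3, P4HA1 and PDK1, called higher, they lie at chr10:131982027-131982086 (−), chr10:73096935-73096964 (−) and chr2:172556060-172556089 (+).

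BNIP3: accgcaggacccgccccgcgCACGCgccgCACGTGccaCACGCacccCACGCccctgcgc
P4HA1: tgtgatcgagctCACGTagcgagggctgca
PDK1: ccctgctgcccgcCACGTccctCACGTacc

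A window of 300 bases, from 250 before to 50 after each annotated start, was found for 30 of the members. In the counts that follow, ACGTG and the variant GCGTG on either strand both count as a core. The core was present in 35 of their 53 windows (66.0%), against 61.5% of the windows of tested genes and 48.4% of all 35116 windows. Enzymes held it in 26 of 40 windows and hypoxia genes in 9 of 13. The window of BNIP3 holds 6 matches, of which 2 are the same CACGTG read on either strand. Counted by gene, 27 of the 30 members held it in at least 1 window (90.0%), against 71.3% of tested genes. These shares are not quite alike, since the 30 members include genes that were not tested. The members also had 53 windows for 30 genes, against 13771 for 9465 tested genes, and more windows give a gene more chances to hold a core. The 27 members with a core comprise all 4 called lower, all 4 called higher that have a window, and 16 of the 18 called neither. The rest are ALDOC, ANKRD37 and CA9, which fell below the count minimum. EGLN3, also below it, has a window without a core. Across tested genes with a window, the median log2 ratio was −0.05 for the 6744 with a core and −0.04 for the 2721 without. A match of these letters is no proof of a binding site.

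**Figure D1:**
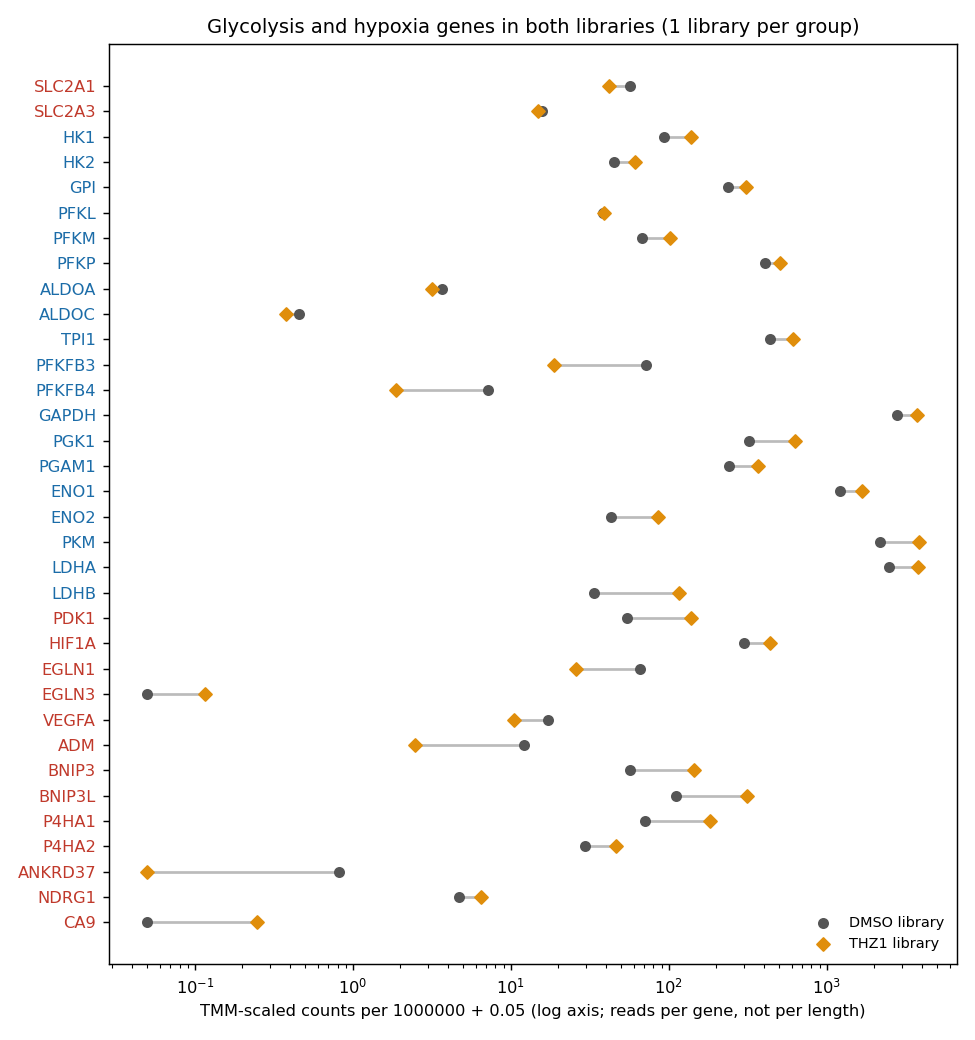
TMM-scaled counts of the 34 genes, as drawn per 1000000 scaled counts, in the DMSO (grey circles) and THZ1 (orange diamonds) libraries on a log axis, with 0.05 added so that genes at 0 can be drawn. Names of enzymes are blue and names of hypoxia genes red; most enzymes shift a short way to the right, while PFKFB3, PFKFB4, EGLN1 and ADM shift to the left.

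Glucose enters the cell through facilitative transporters. SLC2A1, the widely expressed transporter and a classical HIF target, had 1246 counts in DMSO and 639 in THZ1, a log2 ratio of −0.44 (−0.58 to −0.30). SLC2A3, the high-affinity transporter best known from neurons, had 347 and 226 counts and a ratio of −0.09 (−0.34 to 0.15). Neither reached 2-fold on this scaling, and SLC2A1 was the more reduced of the pair.

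Hexokinases trap glucose as its phosphate. HK1, the housekeeping form, had 2058 counts in DMSO and 2107 in THZ1 (log2 ratio 0.56, 0.47 to 0.65). HK2, the form that HIF and growth signals induce, had 985 and 939 counts (0.46, 0.33 to 0.59). The difference between their ratios was 0.10 with an interval of −0.05 to 0.26, so that the inducible and the housekeeping form could not be told apart at this depth. HK1 supplied 67.6% of the reads of the pair in DMSO and 69.2% in THZ1 (intervals 65.9% to 69.3% and 67.5% to 70.8%).

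In upper glycolysis none of the 6 tested genes was called. GPI, which turns glucose phosphate into fructose phosphate, had 5194 and 4705 counts (0.38, 0.33 to 0.44). TPI1, which interconverts the triose phosphates, had 9601 and 9323 counts (0.48, 0.44 to 0.52). Phosphofructokinase, the committed step, is built from 3 kinds of subunit that did not move alike. PFKP, the platelet-type subunit, dominated with 8957 and 7745 counts (0.32, 0.27 to 0.36). PFKM, the muscle-type subunit, had 1486 and 1557 counts (0.59, 0.49 to 0.70), and part of its exons overlaps SENP1 on the opposite strand. PFKL, the liver-type subunit, had 840 and 593 counts (0.02, −0.13 to 0.18) and differed from PFKM by −0.57 (−0.75 to −0.39).

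Aldolase could not be read. ALDOA, the main aldolase of muscle and most dividing cells, had 80 counts in DMSO and 48 in THZ1 (−0.21, −0.76 to 0.32), far below the neighbouring steps. In GENCODE 29, 42.3% of its exonic bases are shared with a readthrough coding gene on the same strand, AC093512.2, and reads in shared bases may not be assigned to either gene. ALDOC, the brain form, had 9 and 5 counts.

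PFKFB3 and PFKFB4 encode bifunctional enzymes that make and break the strongest allosteric activator of phosphofructokinase, and thereby set the pace of glycolysis. PFKFB3 (ENSG00000170525, chromosome 10 from 6144934 to 6254644) had 1577 counts in DMSO and 287 in THZ1, which is 3.81-fold lower (log2 ratio −1.93, −2.12 to −1.75). PFKFB4 (ENSG00000114268, chromosome 3 from 48517684 to 48562015) had 158 and 28 counts and was 3.86-fold lower (−1.95, −2.61 to −1.38). Their ratios differed by 0.02 (−0.58 to 0.62). These were the only 2 of the 18 tested enzymes called lower, and stood at percentiles 8.35 and 8.17 of the ratios of all tested genes. PFKFB2, the heart-type member of the family, had 258 and 193 counts and a ratio of 0.11 (−0.17 to 0.38).

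Lower glycolysis yields ATP and pyruvate. Per length in the DMSO library, GAPDH stood at 3916 TPM (counts per exonic length, scaled to the same sum in each library), LDHA at 1666, PKM at 1065.5 and ENO1 at 970.1, the 4 highest levels of the list, while HIF1A stood at 244. GAPDH, the dehydrogenase often used as a reference gene, had 61177 counts in DMSO and 57174 in THZ1 (log2 ratio 0.43, 0.41 to 0.44). ENO1, the ubiquitous enolase, had 26826 and 25597 counts (0.46, 0.43 to 0.48), and PGAM1, the phosphoglycerate mutase, 5335 and 5661 (0.61, 0.56 to 0.67). PKM, the pyruvate kinase of most tumour cells, had 47865 and 58624 counts (0.82, 0.80 to 0.84). Its 2 splice forms share 1 gene-level count and cannot be separated here.

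PGK1 and ENO2 stood just within 2-fold. PGK1, the first ATP-yielding enzyme of the pathway, had 7056 counts in DMSO and 9707 in THZ1 (0.99, 0.94 to 1.03). ENO2, the neuronal enolase and a known HIF target, had 949 and 1311 counts (0.99, 0.87 to 1.11). With the size factors of DESeq2 both passed the 2-fold rule as higher, as did 10.5% of all tested genes. ENO2 exceeded ENO1 by 0.53 (0.41 to 0.66), and its part in the reads of the enolase pair was small in both libraries, since ENO1 supplied 96.6% in DMSO and 95.1% in THZ1 (intervals 96.4% to 96.8% and 94.9% to 95.4%).

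Lactate dehydrogenase showed the widest gap between paralogues. LDHA, which favours the making of lactate and is a HIF target, had 54233 counts in DMSO and 58158 in THZ1 (0.63, 0.61 to 0.64). LDHB (ENSG00000111716, chromosome 12 from 21635342 to 21757857), which favours the return of lactate to pyruvate, had 736 and 1774 counts and was 3.47-fold higher (1.79, 1.67 to 1.92). The difference of LDHA and LDHB was −1.17 (−1.29 to −1.04). LDHB was the only enzyme called higher, at percentile 98.1 of all tested genes, yet LDHA still supplied 97.0% of the reads of the pair in THZ1 (96.9% to 97.2%), against 98.7% in DMSO (98.6% to 98.8%). Of the exonic bases of LDHB, 33.4% are shared with the readthrough gene AC010197.2 in GENCODE 29, so its level may be undercounted in both libraries.

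**Figure D2:**
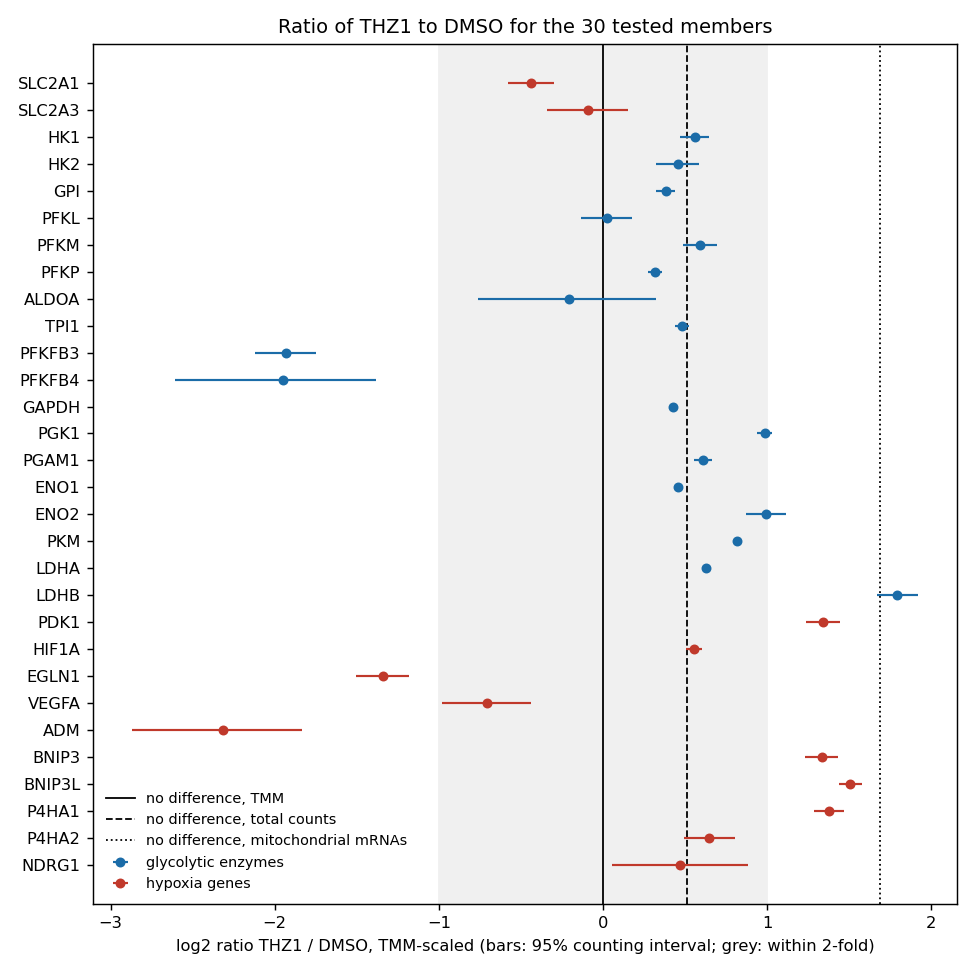
Log2 ratio of THZ1 over DMSO for each of the 30 tested genes in pathway order, with 95% counting intervals; enzymes are blue, hypoxia genes red, and grey marks the range within 2-fold. The vertical lines show where no difference would lie under TMM, total counts (0.51) and the mitochondrially encoded mRNAs (1.69); PFKFB3, PFKFB4, EGLN1, ADM, VEGFA and both glucose transporters lie left of all 3 lines, as does ALDOA.

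Pyruvate enters the mitochondrial citric acid cycle through pyruvate dehydrogenase, which kinases of the PDK family switch off and phosphatases of the PDP family switch on. PDK1 (ENSG00000152256, chromosome 2 from 172555373 to 172608669), the HIF-induced kinase, had 1200 counts in DMSO and 2111 in THZ1, 2.53-fold higher (1.34, 1.24 to 1.44). Both phosphatase genes were lower. PDP1 had 1006 and 159 counts, 4.38-fold lower (−2.13, −2.39 to −1.89), and PDP2 had 644 and 117, 3.81-fold lower (−1.93, −2.23 to −1.65). The related kinase PDK2 had 598 and 624 counts (0.59, 0.42 to 0.75) and PDK3 had 523 and 695 (0.94, 0.77 to 1.10), both within 2-fold. PDK4 had 0 counts in both libraries. The mRNAs for PDK1, PDK2 and PDK3 and those for the phosphatases thus lay on opposite sides of the median of all tested genes, −0.03. The list of this complex and its regulators leaves out PDK1, which was counted with the members. Of the 11 tested genes in this list, PDP1 and PDP2 were called lower (18.2%, beside 21.3% of all tested genes), 0 were called higher and 9 neither. A share this near the background says nothing particular about the list.

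HIF1A itself (ENSG00000100644, chromosome 14 from 61695513 to 61748259), the oxygen-regulated subunit of the factor, had 6582 counts in DMSO and 6713 in THZ1 (0.55, 0.50 to 0.60). Its hydroxylase EGLN1 (ENSG00000135766, chromosome 1 from 231363751 to 231425044), the main oxygen sensor, had 1451 and 398 counts and was 2.53-fold lower (−1.34, −1.505 to −1.18). The sensor and its substrate thus differed in direction with TMM, while HIF1A stood at 0.04 with total counts and at −1.14 on the mitochondrial reference. EGLN3, a hydroxylase gene that hypoxia itself induces, had 0 and 1 counts, too few for a ratio. EGLN2 had 46 and 7 counts, 4.31-fold lower (−2.11, −3.58 to −1.03). Exon overlap with other genes was examined for the members only, so its effect on the sparse EGLN2 counts is unknown.

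The other genes that control HIF were mixed, with 6 of 15 tested called lower (40.0%, beside 21.3% of all tested genes), 2 higher (13.3%, beside 9.7%) and 7 neither. The acetyltransferases EP300 and CREBBP, coactivators of HIF and of many other factors, were 4.42-fold lower (3359 and 528 counts; −2.14, −2.28 to −2.01) and 4.17-fold lower (1898 and 316 counts; −2.06, −2.24 to −1.89). SIAH2, a ubiquitin ligase that destroys EGLN proteins under low oxygen, was 14.9-fold lower (310 and 14 counts; −3.90, −4.83 to −3.18). CITED2, which competes with HIF1A for EP300 and CREBBP, had 517 and 120 counts (−1.58, −1.88 to −1.29). Lower mRNAs therefore included activating and restraining partners alike.

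Among the parts of the VHL ubiquitin ligase, which destroys hydroxylated HIF1A, ELOC and RBX1 were called higher and VHL, CUL2 and ELOB neither. ELOB had 627 and 776 counts (0.83, 0.68 to 0.99). ELOC was 2.60-fold higher (689 and 1246 counts; 1.38, 1.24 to 1.52) and RBX1 2.33-fold higher (910 and 1471 counts; 1.22, 1.10 to 1.34). Neither was called with total counts (0.86 and 0.70), and on the mitochondrial reference both turned to −0.31 and −0.47. VHL, its substrate-binding subunit, had 1316 and 708 counts (−0.37, −0.50 to −0.24) and the scaffold CUL2 3899 and 2942 (0.12, 0.05 to 0.19). ARNT, the constant partner of HIF1A, had 988 and 630 counts (−0.12, −0.27 to 0.02), and the sister factor EPAS1 464 and 398 (0.30, 0.11 to 0.50). No subunit of the ligase or of the HIF dimer among these was called lower with TMM.

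**Figure D3:**
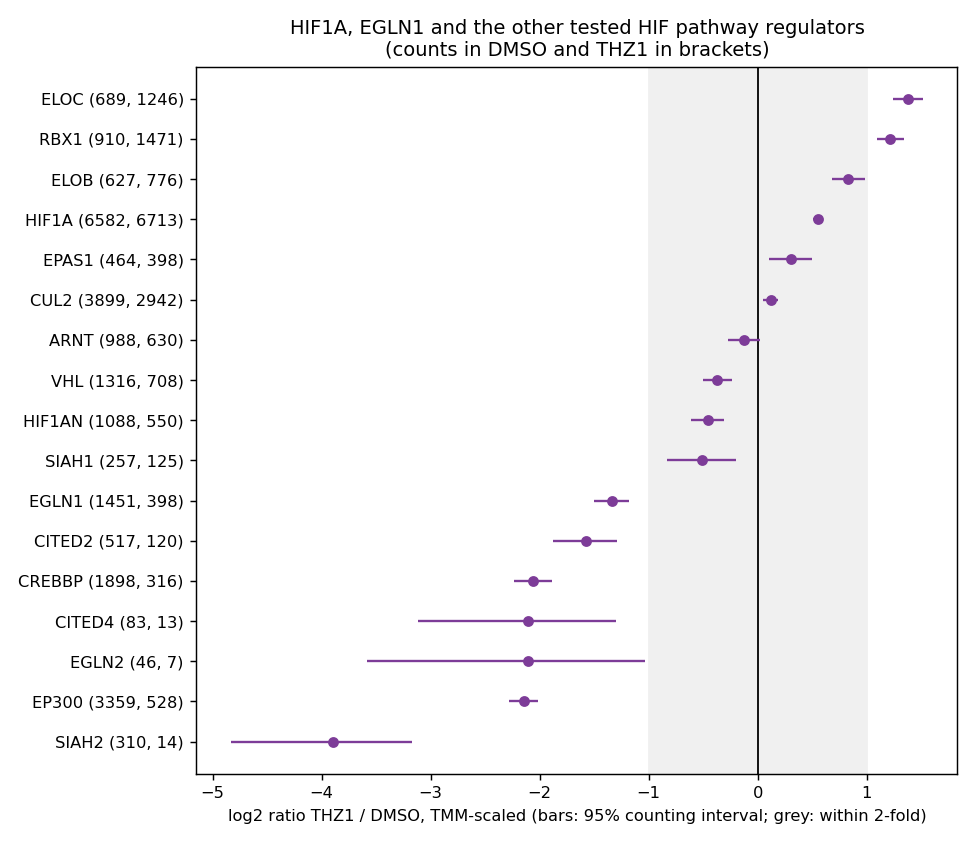
Log2 ratio of THZ1 over DMSO, with 95% counting intervals, for HIF1A, EGLN1 and the 15 other tested HIF regulators, ordered by ratio, with the counts of both libraries beside each name; grey marks the range within 2-fold. SIAH2, EP300, EGLN2, CITED4, CREBBP, CITED2 and EGLN1 lie left of it, and ELOC and RBX1 right of it.

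Secreted products of the hypoxia response were lower or within 2-fold. ADM (ENSG00000148926, chromosome 11 from 10304680 to 10307397), the peptide hormone adrenomedullin that widens vessels, had 268 counts in DMSO and 37 in THZ1. It was 4.98-fold lower (−2.31, −2.87 to −1.83), the lowest ratio of the 30 tested members. VEGFA, the chief angiogenic growth factor, had 376 and 160 counts (−0.70, −0.98 to −0.44), within 2-fold here and called lower with total counts.

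The mitophagy receptors BNIP3 and BNIP3L, which tag mitochondria for removal, were both called higher. BNIP3 (ENSG00000176171, chromosome 10 from 131966455 to 131982013) had 1258 counts in DMSO and 2202 in THZ1, 2.52-fold higher (1.33, 1.23 to 1.43). BNIP3L (ENSG00000104765, chromosome 8 from 26382898 to 26505636) had 2440 and 4819 counts, 2.84-fold higher (1.51, 1.44 to 1.58). BNIP3 is copied in 39 annotated pseudogenes, which held 91 and 90 counts together. The receptors differed by 0.17, with BNIP3L above (0.05 to 0.30).

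Collagen prolyl hydroxylases, which need oxygen to stabilise the collagen helix, parted by paralogue. P4HA1 (ENSG00000122884, chromosome 10 from 73007217 to 73096974), the main catalytic subunit, had 1554 counts in DMSO and 2807 in THZ1, 2.60-fold higher (1.38, 1.29 to 1.47). P4HA2 had 647 and 704 counts (0.65, 0.49 to 0.80). The difference was 0.73 (0.55 to 0.91), and the part of P4HA1 in the reads of the pair was 70.6% in DMSO and 79.9% in THZ1 (intervals 68.7% to 72.5% and 78.6% to 81.3%).

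Of the remaining targets, NDRG1, a stress-induced differentiation gene, had 102 and 98 counts (0.47, 0.05 to 0.88). ANKRD37, a small ankyrin-repeat protein, had 17 counts in DMSO and 0 in THZ1, 3.94-fold lower when 3 counts stand for the 0. The upper end of its counting interval was a log2 ratio of −1.52. ANKRD37 was too sparse for a call, and 35.2% of its exonic bases overlap UFSP2 on the opposite strand. CA9, the carbonic anhydrase used as a hypoxia marker in tumours, had 0 and 3 counts, at or under what 3 counts can show. The 3 hypoxia markers EGLN3, CA9 and ANKRD37 thus had at most 17 counts in either library.

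**Figure D4:**
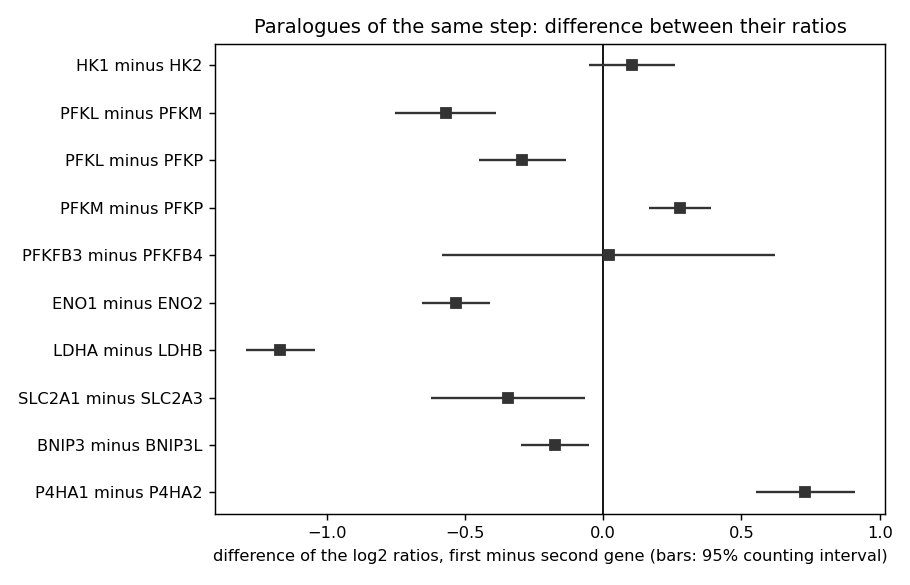
Difference of the log2 ratios (first minus second gene) for 10 pairs of related genes in which both were tested, with 95% counting intervals. LDHA minus LDHB is the furthest from 0, while HK1 minus HK2 and PFKFB3 minus PFKFB4 have intervals that include 0.

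Set side by side, both groups had like medians and unlike spreads. The 18 tested enzymes had a median log2 ratio of 0.47 with quartiles at 0.33 and 0.62, and 15 of them lay above 0. The 12 hypoxia genes had a median of 0.51 with quartiles at −0.50 and 1.33, and 7 lay above 0. All tested genes had a median of −0.03 with quartiles at −0.83 and 0.55. Called lower were 2 of 18 enzymes and 2 of 12 hypoxia genes, beside 21.3% of all tested genes, and called higher were 1 of 18 and 4 of 12, beside 9.7%. Without PFKFB3 and PFKFB4, the 16 tested enzymes of the pathway steps ranged from 0.02 (PFKL) to 1.79 (LDHB), apart from ALDOA at −0.21, whose count is uncertain and which is included in the median, quartiles and counts. Since both groups were read in the same libraries, the gap between their medians (−0.04, enzymes minus hypoxia genes) and all differences between genes are the same under any factor applied to a whole library.

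Abundance moves with this result. When tested genes were ranked by TPM and cut into 4 equal parts, the most abundant part had a median of 0.44, with 7.04% called lower and 14.98% higher, and the least abundant part a median of −0.33. The median of the 18 enzymes was 0.47. Among the 4232 genes that reached 1000 counts in either library, 13.2% were called lower and 10.2% higher, with a median of 0.22. At that depth the 14 enzymes had a median of 0.58, and of the 7 hypoxia genes 4 were called higher and 1 lower, with a median of 1.33. The part of abundance in these values was not tested.

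**Figure D5:**
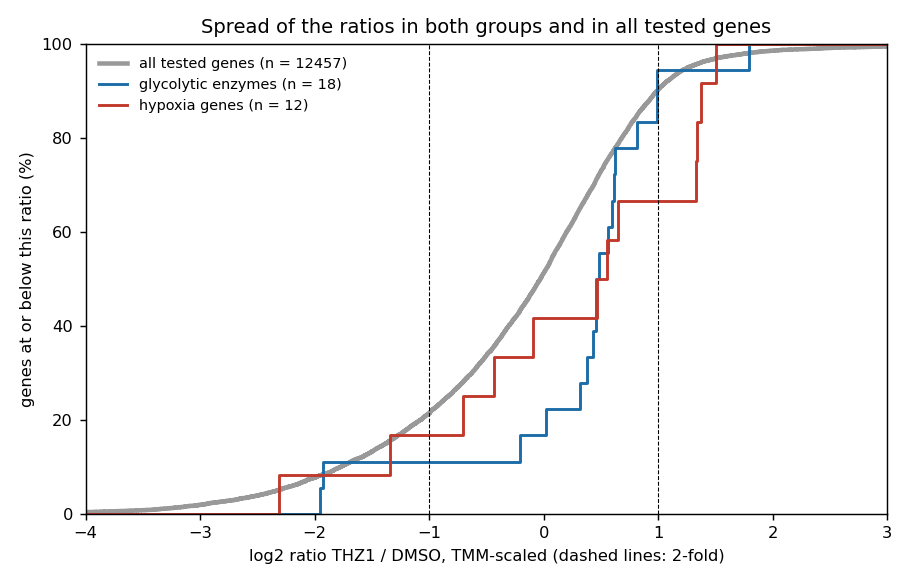
Cumulative share of genes at or below each log2 ratio, for all 12457 tested genes (grey), the 18 enzymes (blue) and the 12 hypoxia genes (red); dashed lines mark 2-fold. The enzyme line climbs steeply between 0.33 and 0.62, its quartiles, and the hypoxia line climbs in steps from −2.31 to 1.51.

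The zero point of these ratios depends on what is taken as constant. Scaling to total counts puts no difference at 0.51 on the TMM scale, after which 8 of 18 enzymes and 6 of 12 hypoxia genes lie above 0, LDHB is the only member called higher and VEGFA joins those called lower. The background is then 34.2% lower and 2.95% higher. The lower genes made up 68.7% of all calls under TMM and 92.0% under total counts, leaving 31.3% and 7.95% higher. The 13 mRNAs made inside mitochondria, which a separate polymerase transcribes, took 6.60% of counts in DMSO (6.59% to 6.61%) and 14.9% in THZ1 (14.88% to 14.91%). With them as reference, no difference lies at 1.69 on the TMM scale, the background is 80.3% lower and 0.706% higher, and 14 of 18 enzymes and 8 of 12 hypoxia genes are called lower with 0 higher. Lower genes are then 99.1% of all calls and higher genes 0.872%. PFKFB3, PFKFB4, EGLN1 and ADM were called lower under all 5 scalings, and LDHB alone kept a ratio above 0 under all 5 (0.10 with the mitochondrial reference). The 19 enzymes together took 1.27% of all counts in DMSO (1.27% to 1.28%) and 1.34% in THZ1 (1.33% to 1.34%).

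Other genes of glucose metabolism were read from wider lists. Of 23 further glycolysis genes, among them tissue-specific forms of the enzymes above, 14 were below the minimum, and the 9 tested had 0 called lower and 0 higher, with a median of 0.11. All 8 genes of the pentose phosphate pathway, which branches off glucose phosphate to make ribose and reducing power, were tested and within 2-fold, with a median of 0.36 and a range of −0.20 to 0.73. Among 8 tested transport genes for glucose, lactate and pyruvate, 1 was lower (12.5%, beside 21.3% of all tested genes) and 2 were higher (25%, beside 9.7%). The lower one was the intracellular glucose transporter SLC2A8 (190 and 62 counts; −1.08, −1.53 to −0.67). The higher ones were SLC2A13, a carrier of inositol (333 and 481 counts; 1.06, 0.85 to 1.26), and MPC2, a subunit of the mitochondrial pyruvate carrier (883 and 1261 counts; 1.04, 0.91 to 1.17). With total counts these 2 stood at 0.54 and 0.52 and were not called, and on the mitochondrial reference they turned to −0.63 and −0.65.

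Beyond the members, 34 of 44 other hypoxia-induced genes were tested, of which 7 were called lower (20.6%) and 5 higher (14.7%), and their median was 0.27. The shares lie near the background of 21.3% and not far above 9.7%. PPP1R3B, which targets a phosphatase to glycogen, was 7.72-fold lower (105 and 9 counts; −2.95, −4.19 to −2.04). The secreted glycoprotein STC2 was 3.39-fold lower (1050 and 215 counts; −1.76, −1.98 to −1.55). FAM162A, a mitochondrial protein, was 2.63-fold higher (774 and 1417 counts; 1.40, 1.27 to 1.53). ERO1A, the oxidase of disulfide formation, was 2.42-fold higher (3186 and 5353 counts; 1.27, 1.21 to 1.34), and the MYC antagonist MXI1 2.20-fold higher (354 and 542 counts; 1.14, 0.94 to 1.34). With total counts FAM162A, ERO1A and MXI1 stood at 0.88, 0.76 and 0.62 and were not called, and on the mitochondrial reference they turned to −0.29, −0.42 and −0.55.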

How the data were processed

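Polyadenylated RNA libraries (KAPA mRNA HyperPrep kit, TRIzol extraction, per the labels' protocols) of 1 DMSO and 1 THZ1 culture were analysed. The authors deposited raw read counts per gene. Trimming with Trimmomatic 0.38, alignment with HISAT2 2.1.0 and counting with featureCounts 1.6.0 on GRCh38 are listed in the submitters' processing notes, without annotation release, strand setting or handling of ambiguous reads, so genes that overlap others or have near-identical copies are uncertain. Of 58884 gene IDs, 58611 were in GENCODE 29 (coordinates, exonic lengths and TPM) and 58472 had a symbol.

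TMM (edgeR 4.0.16, R 4.3.3) on the 12457 genes that reached 30 counts in either library gave effective sizes of 22049153 and 15320940. Log2 ratios use 0.5 added to each count. Their intervals are exact Clopper-Pearson intervals of the THZ1 part of both counts, as are those of shares; differences between genes use a normal approximation. Reads are not independent molecules, so intervals and the floor of 3 counts cover counting error only. The calls were tested on simulated data with and without noise between cultures; with it, the intervals were too narrow.

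The members and lists were chosen with earlier results of these data known. Named are all members and, per list, up to 3 genes called lower and 3 called higher with 100 or more counts. A gene that this rule would name is not reported here. EGLN2, VHL, ARNT, EPAS1, CUL2, ELOB, CITED2, CITED4, PDK2, PDK3, PDK4 and PFKFB2 were named after their values were seen. Scaling, count minimum, added count, calling rule, depth, transcript length and grouping were varied, with DESeq2 1.42.0 for size factors and statsmodels 0.14.6 for the length trend (Python 3.11.15).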

Additional observations from a re-analysis of the deposited data

How the results depend on the processing

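No paired analysis was possible because each group has 1 library, and for the same reason no replicate could be left out. With total counts, 4260 genes were lower and 368 higher, the median of the enzymes was −0.045, and 0 hypoxia genes were higher. With the mitochondrial mRNAs, 10000 genes were lower and 88 higher, 14 enzymes and 8 hypoxia genes were lower and 0 of either were higher, and the medians were −1.22 for enzymes and −1.18 for hypoxia genes; PDK1, BNIP3, BNIP3L and P4HA1 turned to −0.35, −0.36, −0.18 and −0.31. The number of higher enzymes was 3 with DESeq2 size factors and 3 with the trend on exonic length removed. It was 7 at 1.5-fold and 2 when SLC2A1, SLC2A3 and PDK1 were counted with the enzymes. Among all tested genes, 1208 were higher with TMM at 2-fold (9.7%), which that regrouping leaves unchanged. With DESeq2 size factors 1306 were higher (10.5%), with the length trend removed 932, and at 1.5-fold 2914. Higher genes numbered 2223 with a minimum of 1 count and 670 when the interval had to lie wholly past 2-fold. The upper quartile, a minimum of 100 counts, 5 added counts and thinning to equal totals left each group's counts of calls within 1.5 times and each median within its interval. The cause of these shifts in scaling was not tested. Depth limits ALDOC, EGLN3, ANKRD37 and CA9, and without replicates the counting intervals are too narrow wherever cultures vary.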

Other observations

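Annotated near-identical copies of the enzymes held few reads. The 62 annotated pseudogenes named after GAPDH had 54 counts in DMSO and 42 in THZ1 together, beside 61177 and 57174 for GAPDH itself. The 13 named after PGAM1 had 48 and 50, and the 6 named after LDHA had 6 and 0. How reads that map to several places were counted is not stated.

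Transcript length moved with the ratios of all genes. When 12444 tested genes were ranked by exonic length and cut into 4 equal parts, the shortest part had a median log2 ratio of 0.21, with 20.3% called higher, and the longest part −0.09, with 4.92% called higher. By gene span, the shortest part had a median of −0.00048 and the longest 0.07. The part of length in the members' values was not tested beyond the removal of the trend.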
